A study of Mus musculus with 2 samples.

Results

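The simple epithelial keratins Krt7, Krt8, Krt18, Krt19 and Krt20 were followed in single colon crypt cells. They were taken by gene symbol as 5 of the 19294 gene rows of a Drop-seq count matrix, and all 5 had a row. In the 106 epithelial cells that the study divides into stem cells, secretory precursors and absorptive precursors, Krt8 and Krt19 were highest in absorptive precursors. Krt18 was lowest there over all cells, though not within the smaller of the 2 barcode sets, and Krt7 was higher in secretory than in absorptive precursors. Of these 106 cells, 3 held Krt20, all of them absorptive precursors. The balance of the type I keratins differed between the branches, as 55.2% of the Krt18 and Krt19 UMIs of secretory precursors were Krt18, against 12.4% in absorptive precursors.

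Keratins are the intermediate filament proteins of epithelia. A filament is built from heteropolymers of a type I (acidic) and a type II (basic) keratin, so that a cell needs at least 1 gene of each type, and unpaired keratins are degraded. Krt18, Krt19 and Krt20 encode type I keratins, and Krt7 and Krt8 encode type II keratins. Krt8 is the main type II keratin of the intestinal epithelium, Krt18 and Krt19 are its usual partners, and Krt20 is known as a keratin of differentiated intestinal cells. Krt7 is best known from ducts and other simple epithelia. Desmosomes anchor the filaments at the cell membrane.

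Colon cells were isolated from C57BL/6 mice of 4 to 10 months, without pretreatment. All mice carried 1 Tcf4 GfpCre allele, which also removes Tcf4 function from that copy, and the Rosa mTmG reporter, so there was no wild type group. By the labels, samples 1 to 3 formed a pool and samples 4 to 6 another, 2 pools in all, each of Tcf4 Lin- and Tcf4 DP cells. The study's text describes sorted Lin- cells, which the reporter leaves red, and MIX cells, which are both red and green. By its methods, each of these populations was mixed on its own with human cells before capture. Drop-seq captures cells in droplets with barcoded beads, and a unique molecular identifier (UMI) counts each captured transcript once. The barcodes form 2 sets by their endings, X1 and X2. No source used here ties a set to a pool or to a sorted population, so all cells make up 1 sample without replicates. No p-value was therefore computed, and intervals cover counting error only.

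Cells took their group from the study's own lists. Where 3 values follow each other below, they are for stem, secretory and absorptive cells in this order. The subcluster list holds 32 stem cells (69046 UMIs in all), 32 secretory precursors (128664) and 42 absorptive precursors (151780), with median depths of 996, 1820 and 1940 UMIs per cell. The list of all cells divides 516 barcodes into epithelial Pigr+ cells, B cells, and natural (nIEL) and induced (iIEL) intraepithelial lymphocytes. The 409 lymphocytes outside the subclusters (187 nIELs, 175 iIELs and 47 B cells) served as the level for stray RNA, with a median of 1067 UMIs. Of the 5 epithelial markers Epcam, Cdh1, Cldn7, Cldn3 and Pigr, all 5 were at least 2-fold higher in the subclusters than in these lymphocytes, with a median fold of 111. Of 6172 genes with at least 20 UMIs, 23.6% were at least 2-fold higher. T and B cell markers gave 29 UMIs in the 106 cells, and 2 cells held at least 2. Most of the 29 were in 1 absorptive precursor, which held 14 Trac and 6 Trbc2 UMIs. Markers of stromal cells gave 1, 4 and 3 UMIs in the 3 subclusters, those of macrophages 0, 0 and 1, those of tuft cells 0, 1 and 0, and those of enteroendocrine cells none. Of 8 squamous cell markers 2 had a row, with 1, 1 and 2 UMIs. The colonocyte markers Car1, Car4, Slc26a3, Aqp8 and Ceacam1 summed to 869, 1267 and 1331 CPM, with Aqp8 at 0. Most of this was Ceacam1, at 782, 1197 and 975 CPM, while Car1 stood at 57.9, 38.9 and 257 CPM and Slc26a3 at 0, 31.1 and 98.8 CPM. Car4 went the other way, with 2 UMIs in stem cells (29.0 CPM) and 0 in both precursors. The clusters and subclusters were made from these same cells, so each difference between them is a description. The study also named Epcam, Krt8 and Krt19 when it called cells epithelial, and listed Pigr among the markers of that cluster. It named Krt8 and Krt19 for the absorptive subcluster and Krt7 for the secretory one. For its cell trajectory it selected on Pigr and on absent T cell markers. These genes are thus no independent check of the groups. In the list of all cells 14 subcluster cells carry an IEL label, and 4 of them, with 19945 to 23205 UMIs each, held 24.9% of the subclusters' UMIs and 25.7% of their keratin UMIs. No barcode sequence occurred in both sets, and 21 of the 106 barcodes were 1 base from another of the same set. Of these, 20 had the same subcluster as that neighbor, and with such barcodes joined the 106 became 93 cells.

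Levels are UMIs per 1000000 summed UMIs (CPM), and the 95% intervals beside them are exact Poisson limits. Since a UMI tags 1 transcript end, levels were not divided by transcript length. All 5 genes are protein coding, and positions are those of GENCODE M21 on GRCm38. Krt7 (ENSMUSG00000023039.17) lies on chromosome 15 from 101411043 to 101430313 on the plus strand. Krt8 (ENSMUSG00000049382.10) lies on the same chromosome from 101996698 to 102004482 on the minus strand, and Krt18 (ENSMUSG00000023043.7) from 102028180 to 102032027 on the plus strand. Krt8 and Krt18 are thus head to head, with 23698 bases between their start sites and 0 protein coding genes wholly between them. Krt19 (ENSMUSG00000020911.14) and Krt20 (ENSMUSG00000035775.2) lie on chromosome 11, from 100140810 to 100148665 and from 99428403 to 99438150, both on the minus strand. Krt18 is thus the 1 type I gene of the 5 that does not lie on chromosome 11.

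The promoters of Krt8 and Krt18 are shown because these neighbors, which encode partners, had opposite patterns between the precursors. Each sequence holds 250 bases before and 50 after the RefSeq start site on GRCm38.p6, 5′ to 3′ on the gene's strand, and these start sites can differ from the gene ends given above. Krt8 spans chr15:102004293-102004592 on the minus strand and Krt18 spans chr15:102027966-102028265 on the plus strand. Capitals mark matches of 5 motifs that were searched on both strands, namely the TATA box (TATAAA), the GC box (GGGCGG), the CACCC box (CACCC), the CCAAT box (CCAAT) and the AP-1 element (TGANTCA).
Krt8: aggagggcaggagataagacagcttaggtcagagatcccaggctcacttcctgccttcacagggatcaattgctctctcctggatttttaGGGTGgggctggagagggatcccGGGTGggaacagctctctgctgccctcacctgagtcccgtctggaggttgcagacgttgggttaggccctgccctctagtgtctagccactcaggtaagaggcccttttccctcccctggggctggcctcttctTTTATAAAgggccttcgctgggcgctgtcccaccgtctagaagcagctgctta
Krt18: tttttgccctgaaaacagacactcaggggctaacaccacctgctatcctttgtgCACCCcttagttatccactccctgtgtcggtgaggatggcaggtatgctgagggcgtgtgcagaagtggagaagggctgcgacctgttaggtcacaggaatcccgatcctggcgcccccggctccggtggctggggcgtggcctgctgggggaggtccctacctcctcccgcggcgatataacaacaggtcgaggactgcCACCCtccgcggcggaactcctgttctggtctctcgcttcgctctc
The Krt8 window held 2 overlapping matches of the TATA box, 1 on each strand, and 2 of the CACCC box. The Krt18 window held 2 matches of the CACCC box, and none of the TATA box or the GC box. Of 27025 promoters of this length, 14.2% held the TATA box, 56.7% the CACCC box and 35.9% the GC box. The Krt7 window held 4 matches of the GC box and 1 of the CACCC box, and the Krt20 window held 1 of the TATA box, at -29, and 2 of the CACCC box. The CCAAT box (37.9% of promoters) and the AP-1 element (7.93%) were in none of the 4 windows. A match is a run of letters and says nothing of binding.

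Krt8, the type II keratin with the most UMIs, had UMI counts of 47, 115 and 331 in the 3 subclusters. Its level was 681 CPM (500 to 905), 894 CPM (738 to 1073) and 2181 CPM (1952 to 2429). Absorptive precursors stood above both other subclusters, whose intervals overlapped. The Krt8 level of secretory precursors was 0.41 of that of absorptive precursors (0.329 to 0.508). A Krt8 UMI was in 59.4%, 68.8% and 85.7% of the cells, against 0.489% of lymphocytes. Thinned to 800 UMIs each, which leaves out 9, 3 and 6 shallower cells, the shares were 45.4%, 35.7% and 73.5%. The order of the first 2 then goes against the CPM, and no order between them is read.

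Single Krt8 values spread widely. The median cell of the 3 subclusters held 4.9, 5.38 and 20.5 Krt8 UMIs per 10000, and the highest held 14.4, 32.5 and 77.8. In stem cells, 22 of the 47 UMIs came from 1 cell of 23205 UMIs with an iIEL label. In absorptive precursors, 75 of the 331 came from 1 cell of 23171 UMIs with the same label. In set X2 alone the Krt8 level was 807, 359 and 1649 CPM, against 467, 1006 and 2288 CPM in set X1. Absorptive precursors were highest in each set, while the order of the other 2 turned. Set X2 holds only 4 secretory and 8 absorptive precursors. The list of genes holds a Krt8 pseudogene, Krt8-ps on chromosome 7, with 2 UMIs, so a few Krt8 UMIs may have been assigned to the copy or the reverse.

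Krt7, the other type II keratin, was sparse, with UMI counts of 6, 17 and 3, held by 4, 12 and 3 cells. Its level was 86.9 CPM (31.9 to 189), 132 CPM (77.0 to 212) and 19.8 CPM (4.08 to 57.8). The secretory precursors stood 6.68-fold above the absorptive precursors (1.93 to 35.6), and the stem cell interval overlapped both. No secretory precursor held over 2 Krt7 UMIs, so the UMIs were spread over cells. In set X1 the Krt7 level was 117, 113 and 23.8 CPM, and in set X2 it was 69.2, 224 and 0 CPM, so stem cells and secretory precursors did not keep 1 order. A Krt7 UMI was in 12.5%, 37.5% and 7.14% of the cells at full depth, but in 7.65%, 9.15% and 1.85% after thinning to 800 UMIs. Of the type II UMIs, Krt7 made up 11.3% (4.27% to 23.0%), 12.9% (7.68% to 19.8%) and 0.898% (0.186% to 2.60%).

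Krt18, a type I partner of Krt8, had UMI counts of 43, 111 and 49 in the 3 subclusters. Its level was 623 CPM (451 to 839), 863 CPM (710 to 1039) and 323 CPM (239 to 427). Absorptive precursors lay below both others, and the intervals of stem cells and secretory precursors overlapped. Secretory precursors held 2.67 times the Krt18 level of absorptive precursors (1.89 to 3.82). A Krt18 UMI was in 43.8%, 65.6% and 42.9% of the cells, and after thinning in 34.4%, 43.9% and 20.6%. No lymphocyte held 1, which allows a share of up to 0.733%. In set X1 the levels were 856, 846 and 238 CPM, and in set X2 484, 943 and 746 CPM. The lower level of absorptive precursors against the other 2 subclusters together, 0.414-fold (0.294 to 0.575), was 0.28-fold in set X1 and turned to 1.17-fold (0.64 to 2.05) in set X2.

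The highest Krt18 value per 10000 came from 1 shallow secretory precursor. It held 14 Krt18 UMIs, or 152 per 10000, and 3 Krt8 UMIs at a depth of 923 UMIs, and it carries an nIEL label in the list of all cells. The most Krt18 UMIs, 15, were in a secretory precursor of 12713 UMIs, where they came to 11.8 per 10000. The mean over cells of their own CPM, which the shallow cell moves most, was 631, 1248 and 282 for Krt18.

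Krt19, a short type I keratin that lacks most of the tail domain, had UMI counts of 75, 90 and 345 in the 3 subclusters. Its level was 1086 CPM (854 to 1362), 699 CPM (562 to 860) and 2273 CPM (2039 to 2526). Absorptive precursors were highest, and the intervals of the other 2 just overlapped. The level of secretory precursors was 0.308 of that of absorptive precursors (0.241 to 0.389). A Krt19 UMI was in 62.5%, 50% and 88.1% of the cells, and in 51.6%, 29.2% and 74.8% after thinning. The median cell held 11.8, 1.41 and 21.2 Krt19 UMIs per 10000. The largest secretory value, 33 of the 90 UMIs, came from the cell of 12713 UMIs, and without it the level of secretory precursors was 492 CPM. In absorptive precursors 69 and 46 of the 345 UMIs came from cells of 23171 and 20826 UMIs with an iIEL label. In stem cells 19 of the 75 came from the cell of 23205 UMIs with that label. Without the deep cells with an IEL label, the levels were 1222, 745 and 2134 CPM. Absorptive precursors were highest in both sets, at 2328 CPM in X1 and 2002 CPM in X2.

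Krt20 had 16 UMIs in absorptive precursors, or 105 CPM (60.3 to 171), and none in the other subclusters. The level was at least 6.95-fold that of the other 2 subclusters together, with their count of 0 taken as 3 counts. An exact interval, which also counts the error of the 16 UMIs, starts at 5.02. Only 3 of the 42 cells, or 7.14% (1.5% to 19.5%), held Krt20, with 12, 2 and 2 UMIs at depths of 2875, 1927 and 1062 UMIs. The cell with 12 UMIs held 75% of them, and without it the level was 26.9 CPM. Both bounds treat the UMIs as independent, so they rest mostly on this 1 cell and were not computed without it. All 3 cells were of set X1. No Krt20 UMI in 32 stem cells or in 32 secretory precursors allows up to 9.38% of the cells of either to hold 1.

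**Figure D1:**
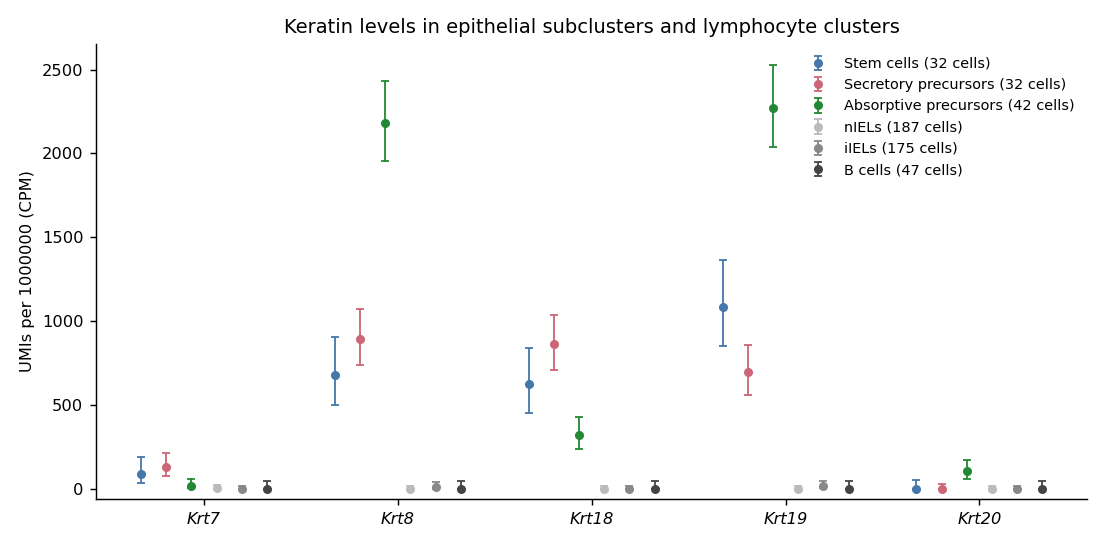
Levels of the 5 keratins in UMIs per 1000000 (CPM, y axis) for the 3 epithelial subclusters and the 3 lymphocyte groups, with exact Poisson 95% intervals. Absorptive precursors stand at 2181 CPM for Krt8 and 2273 CPM for Krt19 but at 323 CPM for Krt18, and lymphocytes lie at or near 0 throughout.

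**Figure D2:**
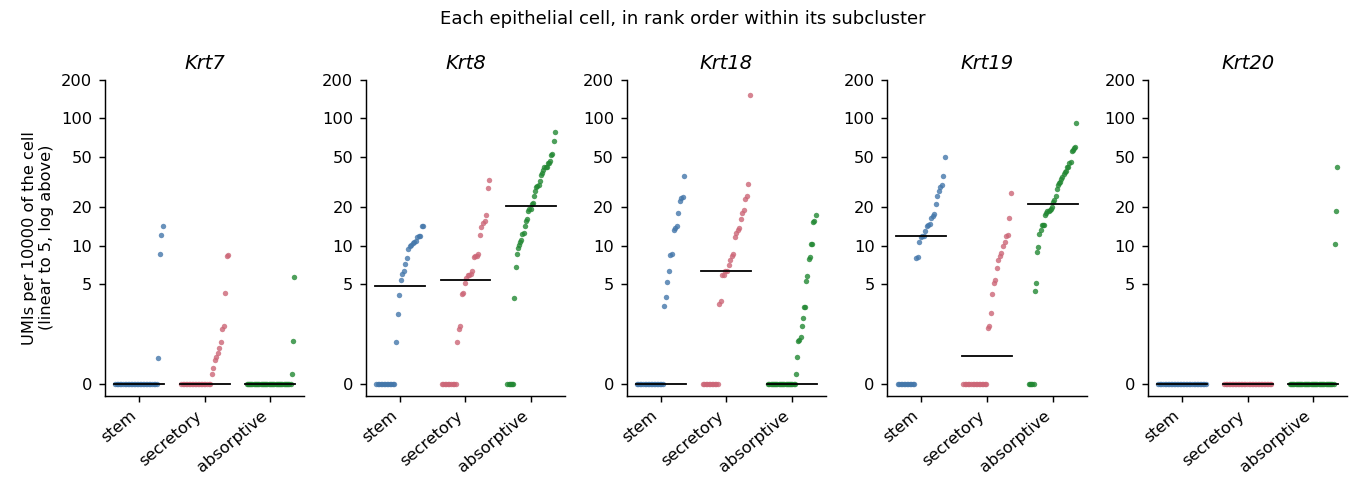
UMIs per 10000 of each cell (y axis, linear to 5 and logarithmic above) for each keratin, with 1 point per cell in rank order and a line at the median of each subcluster. The medians of absorptive precursors are 20.5 for Krt8 and 21.2 for Krt19, and a single secretory precursor reaches 152 for Krt18.

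The 5 keratins together came to 2477 CPM (2119 to 2877), 2588 CPM (2318 to 2882) and 4902 CPM (4556 to 5267) in the 3 subclusters. The summed level of absorptive precursors was 1.92-fold that of the other epithelial cells (1.71 to 2.16), and it was 1.90-fold in set X1 and 1.84-fold in set X2. Of the 4 keratins with at least 20 UMIs in the subclusters, Krt20 being left out, 2 (Krt8 and Krt19) were at least 2-fold higher in absorptive precursors, where 12.9% of all 3013 genes were. The other 2 (Krt7 and Krt18) were at least 2-fold lower there, where 12.6% of genes were. In secretory precursors Krt7 and Krt18 were at least 2-fold higher (9.16% of genes) and Krt19 at least 2-fold lower (18% of genes). In stem cells Krt8 was at least 2-fold lower (16.1% of genes), and none was at least 2-fold higher (13.1% of genes). Between the precursors alone, Krt7 and Krt18 were at least 2-fold higher in the secretory cells (11.5% of 2410 genes) and Krt8 and Krt19 at least 2-fold lower (17.1%). The clusters were made on the same counts, so nothing further is read from these counts of 4 genes.

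The balance between Krt18 and Krt19 was compared as a share of their UMIs. Krt18 made up 36.4% (27.8% to 45.8%), 55.2% (48.1% to 62.2%) and 12.4% (9.34% to 16.1%) of their joint UMIs in the 3 subclusters. The 3 intervals did not overlap. These shares pool the UMIs of a subcluster, so deep cells weigh most. Taken per cell, the mean Krt18 share was 33.9%, 61.2% and 11%, and the median was 29.2%, 66.7% and 0%. Among cells with a UMI of either, 15 secretory precursors held more Krt18 and 9 more Krt19, with 2 ties. In absorptive precursors 1 cell held more Krt18 and 37 held more Krt19. In stem cells these numbers were 6 and 17, with 1 tie. The absorptive cells thus leaned almost wholly to Krt19, and the secretory cells were mixed.

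The size of this difference depended on the barcode set. In set X1 the Krt18 share was 47.8%, 53.9% and 9.26%, so stem cells and secretory precursors did not separate there. In set X2 it was 29.2% (19.0% to 41.1%), 61.8% (43.6% to 77.8%) and 27.1% (17.2% to 39.1%), so stem cells and absorptive precursors did not separate. Secretory precursors were above absorptive precursors in both sets. Without the secretory cell with the most Krt18 and Krt19 UMIs, the secretory share was 62.7%. Goblet cell markers were, like the Krt18 share, highest in secretory precursors. Muc2, Spink4, Agr2, Clca1 and Fcgbp, all 5 of the list, summed to 18611, 61120 and 4447 CPM in the 3 subclusters, and their part in the result was not tested. The study named these 5 among the markers of its secretory subcluster, so their peak there is no independent observation.

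**Figure D3:**
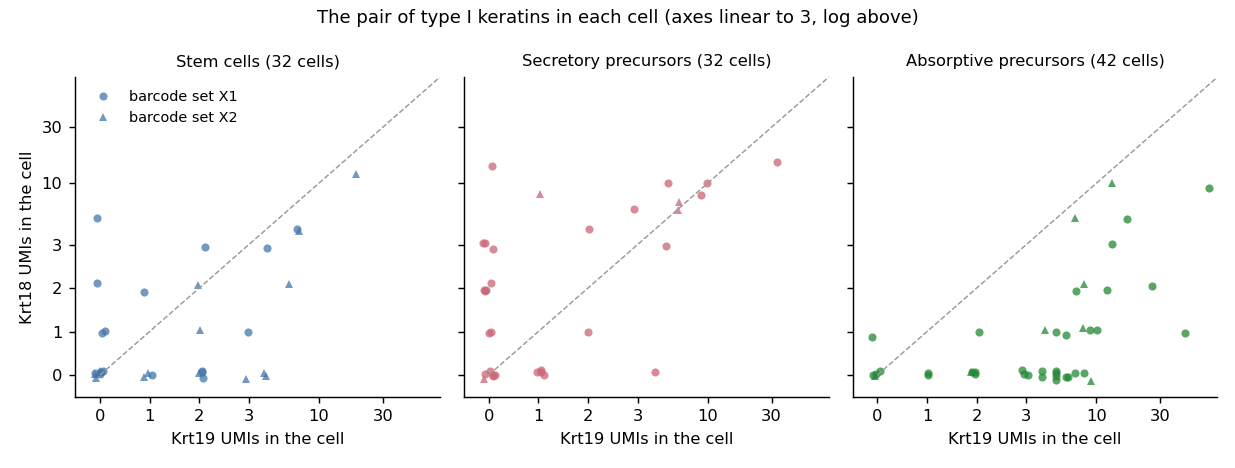
Krt18 UMIs (y axis) against Krt19 UMIs (x axis) of each cell, on axes linear to 3 and logarithmic above, with a small shift so that points do not hide each other; circles are barcode set X1, triangles set X2, and the dashed line marks equal counts. In absorptive precursors 37 cells lie below the line and 1 above, and in secretory precursors 9 lie below and 15 above.

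**Figure D4:**
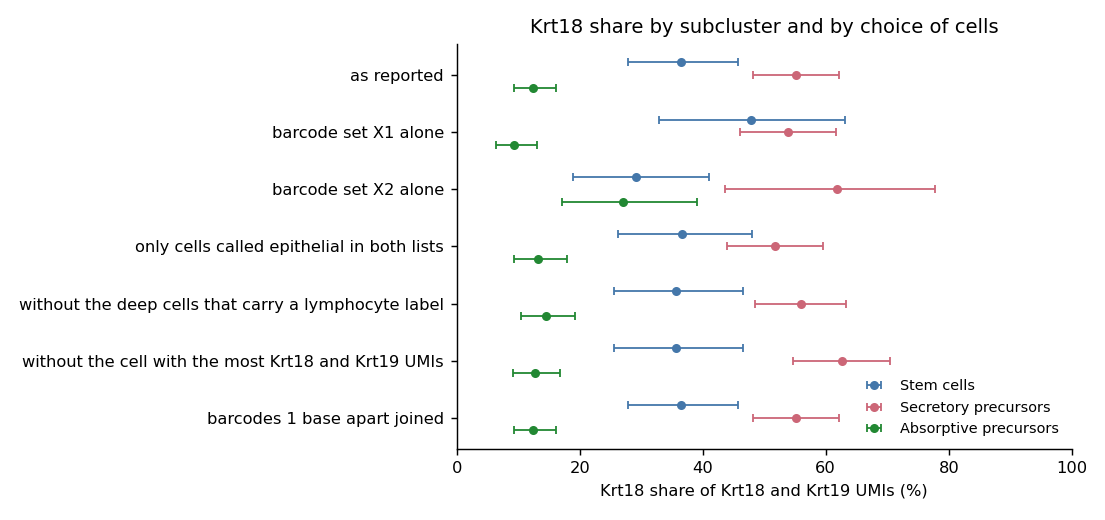
Krt18 as a percent of Krt18 and Krt19 UMIs (x axis) in each subcluster, for different choices of cells (rows), with exact Clopper-Pearson 95% intervals. Secretory precursors lie above absorptive precursors in every row, at 55.2% and 12.4% as reported, while stem cells (36.4%) lie near the secretory value in set X1 and near the absorptive value in set X2.

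Type I keratins gave 729 of the 1248 keratin UMIs of the subclusters, or 58.4% (55.6% to 61.2%). The type I share was 69.0% (61.5% to 75.8%), 60.4% (54.9% to 65.7%) and 55.1% (51.5% to 58.7%) in the 3 subclusters. The UMIs of the types were thus closest to equal in absorptive precursors, with 410 of type I and 334 of type II. Stem cells were above absorptive precursors by non-overlapping intervals, and secretory precursors overlapped both. In set X1 the shares were 75.4%, 58.4% and 53.8%, and in set X2 65.5%, 72.3% and 62.5%.

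A type I and a type II keratin were found together in 16 of 32, 21 of 32 and 34 of 42 cells of the 3 subclusters. Over the 106 cells this was 71, or 67.0% (57.2% to 75.8%), against 1 of 409 lymphocytes. With barcodes 1 base apart joined, the share was 73.1% (62.9% to 81.8%). The median depth was 2421 UMIs for the cells with both types, 1045 for the 17 cells with type I alone, 946 for the 9 with type II alone and 1318 for the 9 with no keratin UMI. The shares thus moved with depth. Thinned to 800 UMIs, both types were found in 34.9%, 29.2% and 62.2% of the cells, so the absorptive share stayed the highest.

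Of the 10 possible pairs, Krt8 with Krt19 was the most frequent, in 61 cells. These were 79.2% of the 77 cells with Krt8 and 83.6% of the 73 cells with Krt19. In absorptive precursors the pair was in 34 of 42 cells (81.0%), against 13 of 32 stem cells and 14 of 32 secretory precursors. Thinned, it was in 25.3%, 13.2% and 60.5% of the cells of the 3 subclusters. Krt8 with Krt18 was in 42 cells, or 54.5% of the Krt8 cells and 79.2% of the 53 Krt18 cells, and it was in 28.1%, 53.1% and 38.1% of the cells of the 3 subclusters. After thinning these shares were 12.0%, 18.3% and 15.9%.

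Krt7 was mostly found in cells that also held other keratins. Of its 19 cells, 16 held Krt8 (84.2%), 15 held Krt18 (78.9%) and 12 held Krt19 (63.2%), where 72.6%, 50% and 68.9% of all 106 cells held these genes. Thinned to 800 UMIs, Krt7 was found with Krt8 in 1.69% of cells in place of 15.1%. Krt7 with Krt18 was then in 6.43%, 4.52% and 0.00409% of the cells of the 3 subclusters, so no order between stem cells and secretory precursors is read. Krt7, Krt8, Krt18 and Krt19 were all found in 10 cells, of which 8 were secretory precursors. The combinations seen most often were Krt8 with Krt19 alone, in 23 cells of which 16 were absorptive precursors, and Krt8, Krt18 and Krt19, in 23 cells of which 13 were absorptive precursors. All 3 Krt20 cells held Krt8 and Krt19, 2 held Krt18 and none held Krt7. Krt18 and Krt19, which are of the same type, were found together in 38 cells, or 71.7% of the Krt18 cells and 52.1% of the Krt19 cells.

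**Figure D5:**
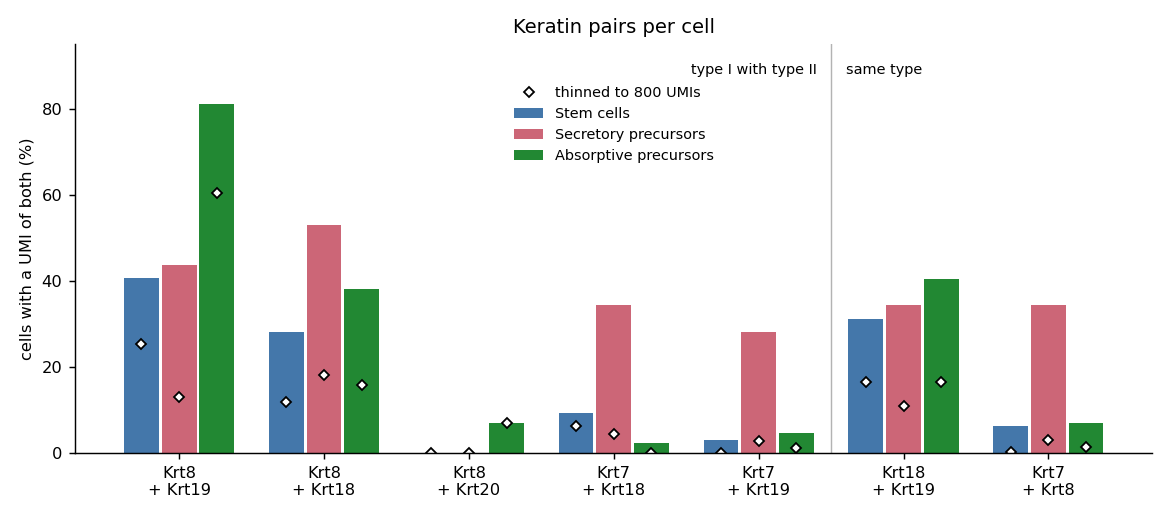
Percent of cells of each subcluster with at least 1 UMI of both keratins of a pair (bars), with the percent after thinning each cell to 800 UMIs (diamonds). Krt8 with Krt19 reaches 81.0% of absorptive precursors and 60.5% after thinning, and the pairs with Krt7 are highest in secretory precursors at full depth.

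Over the 106 cells, Krt8 and Krt19 correlated at r = 0.447 on log(1 + UMIs per 10000), where the cells share libraries and the values depend on depth. Within subclusters r was 0.593 in the 42 absorptive precursors, 0.342 in the 32 secretory precursors and -0.0508 in the 32 stem cells. Krt8 and its neighbor Krt18 were at r = -0.00723 over all cells and at 0.353 in secretory precursors, and Krt18 and Krt19 were at r = -0.0784. In sparse counts such values are descriptions only. Among 1985 genes with a UMI in at least 20 of the cells, Krt19 ranked 8 by likeness to Krt8, and Krt8 ranked 5 by likeness to Krt19.

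The genes most like Krt8 were Hao2, a peroxisomal hydroxyacid oxidase (r = 0.51), Uqcrb, a subunit of respiratory complex III (0.503), and 2610528A11Rik (0.497). Hao2 had 3, 4 and 112 UMIs in the 3 subclusters. Those most like Krt19 were Gsdmc4 (r = 0.59) and Gsdmc2 (0.462), both gasdermins, and Lgals3, galectin 3 (0.46). Gsdmc4 stood at 319, 202 and 1535 CPM in the 3 subclusters. Those most like Krt18 were Foxa3, a forkhead transcription factor (r = 0.389), Fcgbp, a component of goblet cell mucus (0.366), and Ly6e, a GPI-anchored surface protein (0.322). Without the 4 cells of over 10000 UMIs with an IEL label, the other genes named here stayed in their top 3. Foxa3 left it, but no r was available for it there, so a fall in likeness was not shown. Foxa3 had 15, 24 and 1 UMIs, or 217, 187 and 6.59 CPM, and Fcgbp stood at 1318, 5231 and 1364 CPM. The genes most like Krt8 and Krt19 were highest in absorptive precursors, and Fcgbp and Ly6e in secretory precursors. The correlations run over all 3 subclusters, so genes that share a keratin's difference between them rank high. The study also named Gsdmc4 and Lgals3 as absorptive markers and Fcgbp as a secretory marker. Krt7 and Krt20 were in fewer than 20 cells and were not ranked.

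Lymphocytes held almost no keratin. Their 501895 UMIs included 6 keratin UMIs in 3 of 409 cells, or 12.0 CPM (4.39 to 26.0), against 3571 CPM in the subclusters (3376 to 3775). The summed level was 299-fold higher in the subclusters (137 to 816). Krt8 was 354-fold higher (97.5 to 2931, with 2 UMIs in lymphocytes), Krt19 244-fold (83.1 to 1188, with 3 UMIs) and Krt7 37.3-fold (6.13 to 1531, with 1 UMI). Krt18 and Krt20, with none in lymphocytes, were at least 97.2-fold and 7.66-fold higher, taking 0 as 3 counts, with exact intervals that start at 78.3 and 5.54. The Krt20 bounds rest mostly on the 1 cell that held 12 of its 16 UMIs. Of the 4 keratins with at least 20 UMIs, 3 were thus at least 50-fold higher, as were 1.65% of 6172 genes, and none was at least 50-fold lower, as were 1.09% of genes. Since Krt8 and Krt19 helped to name the groups, nothing is read from this count. The 3 lymphocytes were an iIEL with 1 Krt8 and 3 Krt19 UMIs, an iIEL with 1 Krt8 UMI, and an nIEL with 1 Krt7 UMI. Neither iIEL held a T or B cell marker UMI, while the nIEL held 11. The 47 B cells held no keratin UMI, which allows up to 6.38% of them to hold a UMI. These limits concern cells with a UMI at this depth and not cells that express a gene.

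In the list of all cells, the keratins lie elsewhere as well. The 186 iIELs of that list held 154 Krt8, 156 Krt19, 36 Krt18 and 6 Krt7 UMIs, and its 190 nIELs held 16 Krt18 UMIs. Nearly all came from the 14 cells that the subcluster list calls epithelial, since the 175 iIELs outside that list held 2 Krt8 and 3 Krt19 UMIs. The 93 epithelial Pigr+ cells stood at 3556 CPM for the 5 keratins (3326 to 3799), close to the 3571 CPM of the subclusters. All 16 Krt20 UMIs of the assigned cells were in this cluster.

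Other intermediate filament genes were set beside the keratins. Vim, which encodes vimentin, the filament protein of lymphocytes and mesenchyme, had 0 UMIs in the 106 subcluster cells, which allows up to 2.83% of them to hold a UMI, and 203 in lymphocytes, where 29.6% of cells held it. A single lymphocyte held both Vim and a keratin. Lmna, which encodes the nuclear lamins A and C, had 94 UMIs in the subclusters and 4 in lymphocytes, a 33.7-fold difference (12.8 to 126). The B type lamins Lmnb1 and Lmnb2 had 14 and 8 UMIs in the subclusters against 11 and 5 in lymphocytes. Des and Nes, of muscle and neural progenitors, had 2 and 1 UMIs in the whole matrix. There were 7 further keratin rows, of which none reached 20 UMIs. Krt10, a keratin of the epidermis, had the most, with 11.

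Of 13 genes of keratin anchoring and filament organization, 11 had a row and 8 had at least 20 UMIs. Of these, 6 were at least 2-fold higher in the subclusters than in lymphocytes, and their median fold was 7.35 with counts of 0 taken as 3, against 0.945 over 6172 genes, of which 23.6% were at least 2-fold higher. Dsp, which encodes desmoplakin, the link from the desmosome to keratin, had 47 UMIs against 0 (at least 22.5-fold). The desmosomal cadherins Dsg2 and Dsc2 had 83 against 1 (119-fold, 20.8 to 4764) and 23 against 0 (at least 11-fold). Jup, plakoglobin, was 38.8-fold higher (6.39 to 1587). Pkp3, plakophilin 3, at 0.792-fold (0.402 to 1.51), and Plec, plectin, at 1.68-fold (0.85 to 3.34), were not clearly different. Among the epithelial cells, 1 of the 5 of these genes with at least 20 UMIs there, Dsc2, was at least 2-fold higher in absorptive precursors, where 12.9% of all genes were, and the median fold of the 5 was 1.25. Dsc2 was 2.98-fold (1.16 to 8.56) and Dsg2 1.79-fold (1.13 to 2.85) higher in absorptive precursors than in the others, while Dsp was at 1.25-fold (0.673 to 2.31), Jup at 0.766-fold (0.314 to 1.77) and Plec at 0.802-fold (0.288 to 2.09).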

How the data were processed

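Colon crypt cells were profiled by Drop-seq in 2 pools under 1 condition. The authors deposited whole UMI counts per gene symbol and barcode without normalization, in 1 matrix of 19294 genes and 1117 barcodes with 1023641 UMIs. In the submitters' processing notes, the tools are STAR 2.5.0 and Picard 1.137, and mm10 and hg19 are the builds. The authors used the Drop-seq pipeline and clustered cells with Seurat. The gene annotation, the settings for joining UMIs and the depth filters on barcodes are not given in the sources used here, and no doublets were called. Of the barcodes, 516 have a cluster in the study's lists. Levels were summed counts per 1000000. Folds had exact binomial 95% intervals on the UMIs, shares had Clopper-Pearson intervals, and for counts of 0 the limit was 3. These intervals treat UMIs as independent. Thinning to 800 UMIs was computed with the hypergeometric distribution. The fold computation was tested on simulated data. The keratins, gene lists and motifs were chosen with earlier results of these data known. Named were the keratins, genes of the lists, and the 3 genes most correlated with each keratin found in at least 20 cells. Promoters came from a RefSeq table, which matched 4 of the 5 keratins, all but Krt19. Alternatives were other levels, each barcode set, and other choices of cells. Python 3.11.15, numpy 2.4.6, pandas 2.3.3 and scipy 1.17.1 were used, with matplotlib 3.10.9.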

Additional observations from a re-analysis of the deposited data

Results flagged for a closer look

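Keratin UMIs were also found among the 601 barcodes that have no cluster and enter no comparison, at a level above the limit that a count of 0 allows. These barcodes, with a median of 212 UMIs and 36.8% mitochondrial UMIs, held 169 keratin UMIs in 75 barcodes, or 984 CPM (841 to 1144), where 0 counts would allow 17.5 CPM and lymphocytes stood at 12.0 CPM. Of these UMIs, 82 were Krt19, 59 Krt8, 16 Krt18, 9 Krt20 and 3 Krt7. All 169 were in set X1, to which 588 of the 601 barcodes belong, and 2 of the 75 barcodes were 1 base from a subcluster barcode. The 9 Krt20 UMIs lay in 4 barcodes, beside 16 in 3 absorptive precursors.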

How the results depend on the processing

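Of 58 values of the 7 main quantities under other settings, 50 lay within the interval of the reported value. Some of these, and of the single keratin values below, could not move. Joining barcodes leaves summed levels and UMI shares as they were. The cells left out for at least 2 UMIs of T and B cell markers were all absorptive precursors. In stem cells, the deep cell with an IEL label was also the cell with the most UMIs. The summed level of absorptive precursors against other epithelial cells, 1.92-fold as reported, was 2.21-fold when cells were weighted equally and 1.75 to 2.02-fold otherwise. The type I share, 58.4%, was 65.4% in set X2. Cells with both types, 67.0%, were 45.3% with at least 2 UMIs and 44.2% when thinned. The Krt18 share of Krt18 and Krt19, a quantity chosen after seeing the data, was 47.8% in stem cells of set X1, 9.26% and 27.1% in absorptive precursors of sets X1 and X2, and 62.7% in secretory precursors without the cell with the most Krt18 and Krt19 UMIs. The Krt18 fold of absorptive precursors turned to 1.17 in set X2. The causes were not tested. The subclusters against lymphocytes were 195 to 299-fold higher, except that set X2 gave no value, since its 35 lymphocytes held no keratin UMI. Every setting left the 14 subcluster cells with an IEL label out of the lymphocytes, so this choice was not varied. By the list of all cells, the 5 keratins stood at 3556 CPM in epithelial Pigr+ cells, 86.5 CPM in nIELs and 1239 CPM in iIELs. Of the single keratin levels, folds and shares, 1 reversed, 44 moved beyond the interval and 312 did not. The changes were most frequent in set X2 alone, where of 37 such values 1 reversed, 14 moved and 22 did not. No paired analysis was possible because the barcodes could not be tied to the pools, and each barcode set was analysed alone instead. Depth limits Krt7 and Krt20 most, with 26 and 16 UMIs.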
